A study of Homo sapiens with 4 samples.

Results

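To describe how blocking TGFβ signaling touched clotting and clot-dissolving genes of hESC-derived cells, 9 were read from the deposited table by gene symbol. These were VWF, F8, F3, TFPI, THBD, PROCR, PLAT, PLAU and PLAUR. Each of the 9 symbols had 1 row among the 58365 rows of the table, and all 9 met the filter on low values (a mean of at least 1 FPKM in at least 1 group). The libraries came from H1, an established human embryonic stem cell line, taken through stepwise hematopoietic differentiation in Custom mTeSR1 medium and collected at day 8. Every culture received activin A (40 ng/ml) and BMP4 (50 ng/ml) for 2 days, then VEGF (40 ng/ml) and bFGF (50 ng/ml) for 3 days, and VEGF and bFGF at the same doses for the last 3 days. During these last 3 days SB431542, an inhibitor of the kinase activity of TGFβ type I receptors, was present in 2 libraries (SB replicates 1 and 2) and absent in the other 2 (DMSO replicates 1 and 2). According to the methods of the study, CD31-positive cells were taken for sequencing, a step the sample labels leave out. The study also counts a hematopoietic subpopulation within the CD31-positive cells of day 8, so the libraries need not be endothelium alone. The labels do not say whether the 2 libraries of a group came from separate cultures, and the methods speak of independent experiments for the study in general, so the p-values measure the spread between these libraries, which may be technical.

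Hemostasis at the vessel wall rests on opposed activities that endothelial cells supply. Tissue factor (F3) starts coagulation and TFPI blocks it, while thrombomodulin (THBD) and the endothelial protein C receptor (PROCR) turn thrombin toward activation of the anticoagulant protein C. Von Willebrand factor (VWF) tethers platelets and carries factor VIII (F8), a cofactor of coagulation. Clots are dissolved by plasmin, which tissue plasminogen activator (PLAT) and urokinase (PLAU) release from plasminogen, with the urokinase receptor (PLAUR) holding urokinase at the cell surface.

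Levels are given as FPKM, fragments scaled to transcript length and to library size, so that genes of different length can be compared. With limma on log2(FPKM + 1), 0 of the 9 genes had an adjusted p under 0.05 for SB against DMSO, where this held for 0.134% of all 14909 genes tested. At an unadjusted p under 0.05 there were 4 of the 9 (F3, TFPI, PROCR and PLAT), all of them lower with SB431542, against a background of 9.96% of genes in either direction and 5.16% lower. In 6 of the 9 genes the groups were apart (no SB library within the DMSO range), where 37.5% of all genes tested were apart in this way. Of the 6, the SB libraries lay lower in 5 (F3, TFPI, PROCR, PLAT and PLAU; 16.0% of all genes) and higher in 1 (F8; 21.5% of all genes). The median log2 fold change was -0.40 over the 9 genes and 0.040 over all genes tested. F3 met the filter through its DMSO libraries alone and so had to be lower. Without it the counts were 3 at an unadjusted p under 0.05 and 5 apart among 8 genes, with a median of -0.30. The count of 4 fell on removal of each library in turn, and so did the share of all genes at this threshold. With each library removed in turn, the log2 fold change ranged from -1.15 to -0.85 in PLAT, -0.73 to -0.46 in PROCR and -0.45 to -0.35 in TFPI. F3, whose direction was fixed, no longer met the filter without DMSO replicate 1, where 8 genes were tested. In these bulk libraries, fewer cells of a type and less RNA per cell cannot be told apart.

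**Figure D1:**
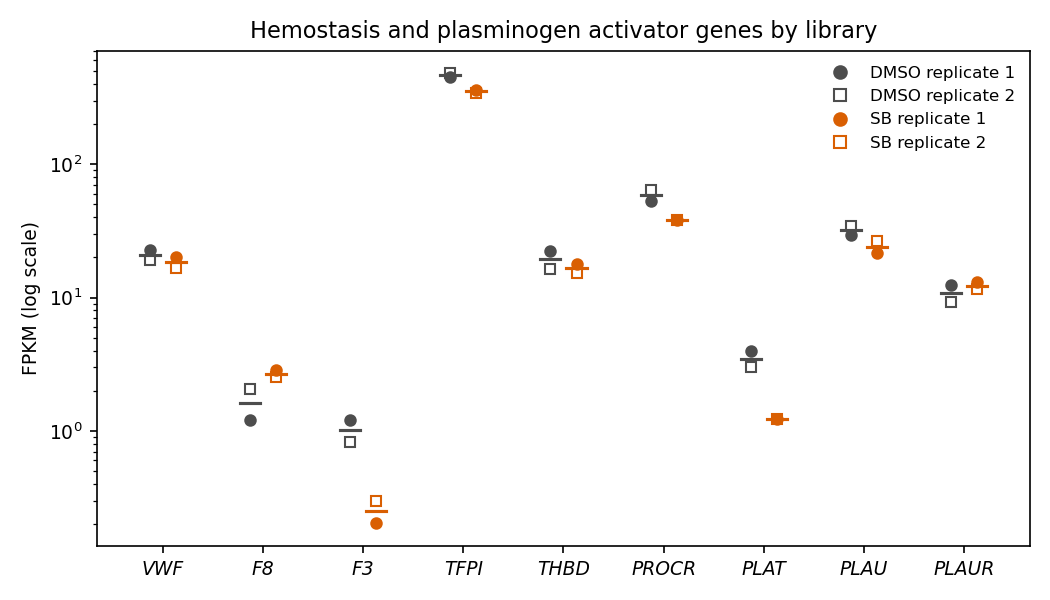
FPKM on a log axis of the 9 genes in each library, with filled circles for replicate 1, open squares for replicate 2, and a bar at the mean of each group of 2. TFPI lies highest at 341 to 481 FPKM and F3 lowest at 0.203 to 1.21 FPKM, and the SB points of F3 and PLAT lie apart from and below the DMSO points. The direction of F3 was fixed by the filter, which it met through DMSO alone.

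The levels of the 9 genes spanned more than the treatment moved any of them. With DMSO the order was TFPI, PROCR, PLAU, VWF, THBD, PLAUR, PLAT, F8 and F3. Neighbours in this order were separated in both libraries of the group except VWF and THBD, whose values overlapped. With SB431542 the order was the same apart from F8 (2.69 FPKM) and PLAT (1.23 FPKM), which exchanged places, and VWF and THBD again overlapped. TFPI stood among the most abundant transcripts of the table, with 0.946% of the genes tested above it with DMSO and 1.29% with SB431542. F3 stood at the other end, with 96.0% of genes above it with DMSO and 99.1% with SB431542. The library size was roughly estimated from the lowest values of long single-exon genes, which step by what 1 fragment is worth. It came to about 22400000 and 21600000 fragments for the DMSO libraries and about 18200000 and 24000000 for the SB libraries. Only values within a fixed window were used, from 31 to 39 genes a library, so the window itself bounds the estimate.

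Because 5 genes lay lower and 1 higher without overlap, the sequences upstream of their starts are shown where RefSeq (GRCh38.p14) gave a window for the gene. Windows were found for F8, F3, TFPI, PROCR, PLAU and PLAUR. That of PLAUR lay within exons of the gene and is not printed, while F8 and PLAU each had windows at 2 starts. Bases from up to 250 before the start are printed 5′ to 3′, without those in exons of the gene, and capitals mark matches to 4 motifs searched on both strands, none overlapping another. The AP-1 site was searched as TGANTCA. The SMAD box, bound by the transcription factors downstream of TGFβ receptors, was searched as CAGAC. The GC box of Sp factors was searched as GGGCGG. The TATA box was searched as TATAAA.
F3 (chr1:94541801-94542009, minus strand): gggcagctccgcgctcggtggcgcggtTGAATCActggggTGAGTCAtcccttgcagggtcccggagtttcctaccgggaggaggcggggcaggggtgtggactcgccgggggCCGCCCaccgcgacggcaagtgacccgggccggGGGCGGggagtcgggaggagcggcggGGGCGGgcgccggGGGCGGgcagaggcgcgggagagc
TFPI (chr2:187554493-187554685, minus strand): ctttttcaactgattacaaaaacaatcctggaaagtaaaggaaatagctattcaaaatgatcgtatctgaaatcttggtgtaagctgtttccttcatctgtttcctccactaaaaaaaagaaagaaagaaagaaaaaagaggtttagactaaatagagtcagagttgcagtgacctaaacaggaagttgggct
PROCR (chr20:35171822-35172071, plus strand): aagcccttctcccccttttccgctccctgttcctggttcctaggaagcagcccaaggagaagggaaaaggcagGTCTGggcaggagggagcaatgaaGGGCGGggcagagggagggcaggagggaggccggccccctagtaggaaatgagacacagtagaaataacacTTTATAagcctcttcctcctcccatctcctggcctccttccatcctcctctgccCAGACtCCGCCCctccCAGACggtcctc
PLAU start 1 (chr10:73910360-73910604, plus strand): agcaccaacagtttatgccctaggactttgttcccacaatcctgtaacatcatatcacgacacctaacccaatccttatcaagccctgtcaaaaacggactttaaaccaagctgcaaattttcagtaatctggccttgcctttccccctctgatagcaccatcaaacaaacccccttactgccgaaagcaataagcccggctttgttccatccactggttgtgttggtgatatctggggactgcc
PLAU start 2 (chr10:73910882-73911103, plus strand): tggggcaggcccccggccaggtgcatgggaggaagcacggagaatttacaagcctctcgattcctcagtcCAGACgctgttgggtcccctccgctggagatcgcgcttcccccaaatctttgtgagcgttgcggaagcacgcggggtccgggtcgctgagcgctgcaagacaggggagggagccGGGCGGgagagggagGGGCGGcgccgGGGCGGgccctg
F8 start 1 (chrX:155022754-155022973, minus strand): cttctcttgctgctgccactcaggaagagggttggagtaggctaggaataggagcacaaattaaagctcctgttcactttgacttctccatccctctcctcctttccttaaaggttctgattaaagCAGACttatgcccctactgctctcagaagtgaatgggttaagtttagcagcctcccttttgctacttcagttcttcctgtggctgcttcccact
F8 start 2 (chrX:154886318-154886567, minus strand): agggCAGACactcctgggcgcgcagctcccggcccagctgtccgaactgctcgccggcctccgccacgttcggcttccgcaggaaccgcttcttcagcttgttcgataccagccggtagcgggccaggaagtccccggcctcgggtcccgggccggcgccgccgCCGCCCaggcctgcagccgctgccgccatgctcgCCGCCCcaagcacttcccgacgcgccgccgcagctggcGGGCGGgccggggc
The F3 window held 2 AP-1 matches, at -223 and -210 from the start, and 5.58% of 35116 promoters held such a match in the same stretch. It also held 4 GC boxes (36.9% of promoters held at least 1) and no SMAD box. In PROCR there were 3 SMAD boxes (38% of promoters held at least 1), 2 GC boxes (42.6%) and 1 TATA box (10.7%) on the opposite strand. PLAU held 1 SMAD box (34.9%) and 3 GC boxes (39.2%) before start 2 and no motif before start 1. F8 held 1 SMAD box (34.7%) before start 1, and 1 SMAD box (38%) and 3 GC boxes (42.6%) before start 2. Start 2 of F8 lies within the F8 locus, downstream of start 1. In TFPI none of the 4 motifs was found in 193 bases. A match is a description of these letters only, since nothing was measured here at the promoters.

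Of the gene pair that starts and restrains coagulation, F3 had the largest fold difference of the 9 genes. F3 (ENSG00000117525.13, chromosome 1, 94529225 to 94541800, minus strand), the receptor of factor VIIa, was at 1.21 and 0.827 FPKM with DMSO, and at 0.203 and 0.297 FPKM with SB431542. Both SB values lay below both DMSO values, and the mean was 4.07-fold lower (1.02 ± 0.269 against 0.250 ± 0.0666 FPKM, SD, n = 2 each). On the log2(FPKM + 1) scale, which understates differences of such low values, the fold change was -0.69 (SE 0.25, limma adjusted p 0.471), and it was -1.67 with a pseudocount of 0.1 in place of 1. The counts behind it were small, and F3 met the filter through DMSO alone, which fixed its direction. Fragments were approximated from the estimated library sizes and a transcript of 2287 nt, the longest coding one annotated. They came to about 62 and 41 with DMSO and about 8 and 16 with SB431542.

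TFPI (ENSG00000003436.15, chromosome 2, 187464230 to 187565760, minus strand), the Kunitz-type inhibitor of the tissue factor complex, was at 447 and 481 FPKM with DMSO and at 363 and 341 FPKM with SB431542. The groups did not overlap, and the SB mean was 1.32-fold lower (log2 fold change -0.40, SE 0.15, 95% interval -0.79 to -0.0033, limma adjusted p 0.499). An antisense transcript, AC007319.1, shares exonic bases with TFPI and stayed at 0.669 FPKM or less in every library. Within each library TFPI exceeded F3 by 370-fold and 581-fold with DMSO and by 1786-fold and 1146-fold with SB431542. The ratio was higher in both SB libraries, 3.08-fold on the means, with the fewest F3 fragments in the library of the highest ratio. It followed F3, which met the filter through DMSO alone and so had to be lower, while TFPI was itself lower. No shift between inhibitor and initiator is read from it.

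Of the protein C receptors, PROCR lay lower with SB431542 without overlap and THBD overlapped, and the difference between them was not tested. PROCR (ENSG00000101000.5, chromosome 20, 35172073 to 35216240, plus strand), which presents protein C to thrombomodulin and also marks endothelium with blood-forming potential, was at 52.7 and 63.9 FPKM with DMSO and at 38.0 and 38.1 FPKM with SB431542. The SB libraries were nearly equal and lay below both DMSO libraries, with a mean 1.53-fold lower (log2 fold change -0.60, SE 0.18, 95% interval -1.05 to -0.14, limma adjusted p 0.373). The antisense AL356652.1 overlaps its exons and was at 0.311 FPKM or less. THBD (ENSG00000178726.6, chromosome 20, 23045633 to 23049741, minus strand), an intronless gene for the thrombin receptor that starts protein C activation, was at 22.5 and 16.4 FPKM with DMSO and at 17.8 and 15.4 FPKM with SB431542. Its groups overlapped, and the difference between the means was smaller than that between the DMSO replicates (log2 fold change -0.21, 95% interval -0.77 to 0.36, limma adjusted p 0.871). Without DMSO replicate 1 its value was 0.011. The ratio of PROCR to THBD was 2.35 and 3.90 with DMSO and 2.14 and 2.48 with SB431542, and overlapped between groups.

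VWF and F8 are partners in plasma, and neither passed the test. VWF (ENSG00000110799.13, chromosome 12, 5948874 to 6124770, minus strand), stored in the Weibel-Palade bodies of endothelium and the granules of platelets, was at 22.8 and 19.0 FPKM with DMSO and at 20.3 and 16.6 FPKM with SB431542. The groups overlapped and replicate 1 was higher than replicate 2 in each of them (log2 fold change -0.17, 95% interval -0.68 to 0.33, limma adjusted p 0.881). Divided by PECAM1, the gene of CD31, VWF was 0.116 and 0.117 with DMSO and 0.112 and 0.109 with SB431542, so that the spread between replicates nearly vanished. The near-identical partial copy VWFP1 on chromosome 22 was at 0.0194 FPKM or less.

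F8 (ENSG00000185010.13, chromosome X, 154835788 to 155026940, minus strand) was at 1.21 and 2.05 FPKM with DMSO and at 2.85 and 2.53 FPKM with SB431542. It was the 1 gene of the 9 with both SB libraries above both DMSO libraries, and its mean was 1.65-fold higher (log2 fold change 0.51, SE 0.24, 95% interval -0.13 to 1.14, limma adjusted p 0.621). The fold change was 0.74 without DMSO replicate 2 and 0.27 without DMSO replicate 1, so its size rested on the DMSO libraries, which differed from each other more than the SB libraries did. Exonic bases of F8 overlap FUNDC2 on the opposite strand, which was at 25 to 31.2 FPKM, and strand use in counting is not given in the sources used here. The ratio of VWF to F8 was 18.9 and 9.31 with DMSO and 7.11 and 6.58 with SB431542, 2.06-fold lower on the means.

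**Figure D2:**
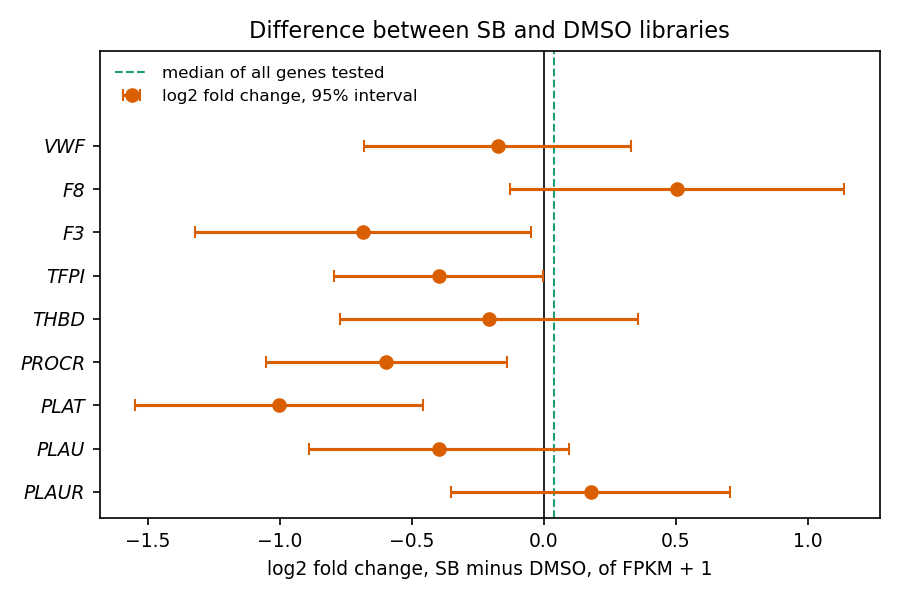
Difference between SB and DMSO libraries for the 9 genes, as the log2 fold change of FPKM + 1 (points) with its 95% interval from limma (bars), beside 0 (solid line) and the median of all genes tested (dashed line, 0.040). The interval lies below 0 for F3, TFPI, PROCR and PLAT and includes 0 for the other 5 genes, before any adjustment for the number of genes. F3 met the filter through DMSO alone, which fixed its direction.

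Among the genes of plasminogen activation, PLAT had the lowest unadjusted p of the 9 genes. PLAT (ENSG00000104368.17, chromosome 8, 42175233 to 42207724, minus strand), the activator that endothelium secretes into blood, was at 3.94 and 3.03 FPKM with DMSO and at 1.22 and 1.24 FPKM with SB431542. The SB libraries were nearly equal and 2.84-fold below the DMSO mean (log2 fold change -1.0, SE 0.21, 95% interval -1.55 to -0.46, limma unadjusted p 0.00543, limma adjusted p 0.233). PLAU (ENSG00000122861.15, chromosome 10, 73909177 to 73917497, plus strand), the activator tied to cell migration and matrix turnover, was at 29.4 and 34.4 FPKM with DMSO and at 21.7 and 26.4 FPKM with SB431542. Its groups did not overlap, and its mean was 1.33-fold lower (log2 fold change -0.40, 95% interval -0.89 to 0.096, limma adjusted p 0.618). C10orf55, which overlaps its exons on the opposite strand, was at 0.196 FPKM or less. PLAUR (ENSG00000011422.11, chromosome 19, 43646095 to 43670547, minus strand), a lipid-anchored receptor also made by myeloid cells, was at 12.3 and 9.33 FPKM with DMSO and at 13.1 and 11.5 FPKM with SB431542. The groups overlapped (log2 fold change 0.18, 95% interval -0.35 to 0.71, limma adjusted p 0.886), and without DMSO replicate 2 the value was -0.0069.

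The balance of activators and receptor was set out as ratios of FPKM within a library, which a single scaling factor per library cannot alter. PLAU exceeded PLAT by 7.47-fold and 11.4-fold with DMSO and by 17.8-fold and 21.4-fold with SB431542. PLAU stood at 2.39 and 3.68 times PLAUR with DMSO and at 1.66 and 2.30 times PLAUR with SB431542. The first ratio was higher in both SB libraries (2.08-fold on the means), and the second was lower in both (1.54-fold on the means). The ratios are descriptions and were not tested.

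**Figure D3:**
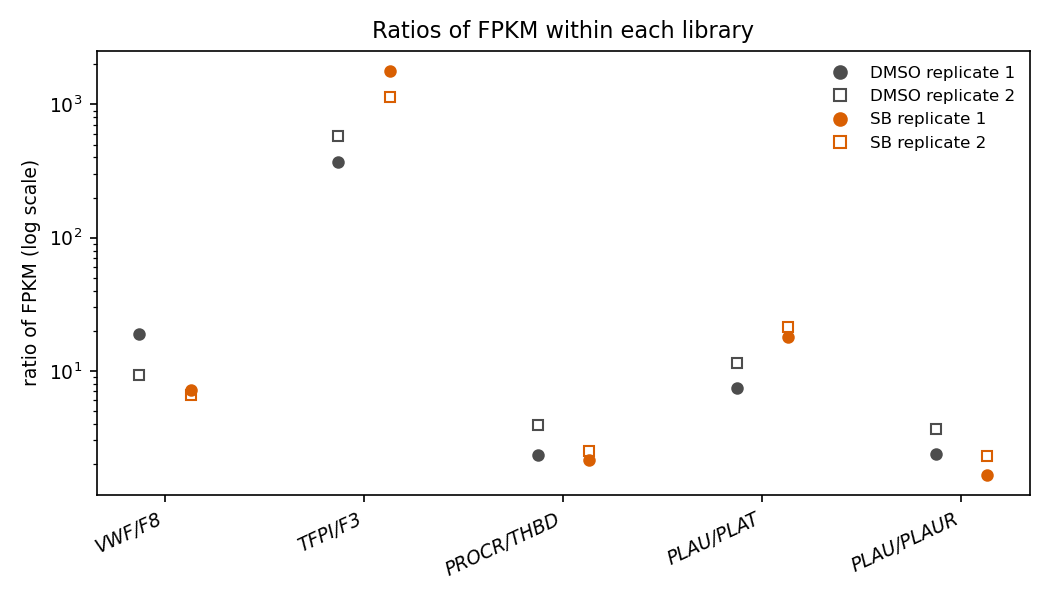
Ratios of FPKM between pairs of genes within each library, on a log axis, with DMSO libraries in grey and SB libraries in orange (filled circles, replicate 1; open squares, replicate 2). The SB points lie above the DMSO points for TFPI/F3 and PLAU/PLAT and below them for VWF/F8 and PLAU/PLAUR, and overlap them for PROCR/THBD. F3 met the filter through DMSO alone, which fixed its direction in TFPI/F3.

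The rest of the system was read from a list of 48 other genes of hemostasis and fibrinolysis grouped by role, of which 31 met the filter. With limma, 0 of the 31 passed the adjustment over all genes. At an unadjusted p under 0.05 there were 18, of which 8 were higher (4.80% of all genes tested were) and 10 were lower (5.16% were). Of the 31, 4 met the filter through DMSO alone (F10, FGA, FGB and VTN) and 2 through SB431542 alone (F13A1 and GP5), which fixed their direction. Among the other 25 genes 6 were higher and 6 lower at an unadjusted p under 0.05. The median log2 fold change of the 31 was -0.12. Among VWF partners and processing enzymes 6 of 8 genes were higher at an unadjusted p under 0.05, and without GP5 these were 5 of 7. MMRN2 and ADAMTS13 were lower in both SB libraries without passing it (ADAMTS13, the protease that cleaves VWF, was picked with its values in view, with a log2 fold change of -0.63 and a limma adjusted p 0.529). MMRN1, a factor V-binding protein of platelets and endothelium, was at 22.0 and 32.3 FPKM with DMSO and at 43.2 and 56.7 FPKM with SB431542 (log2 fold change 0.87, limma adjusted p 0.385). MMRN2, an endothelial matrix protein, was at 130 and 122 FPKM with DMSO and at 105 and 100.4 FPKM with SB431542 (log2 fold change -0.29, limma adjusted p 0.672). The highest value of the role was that of GP1BB, a subunit of the platelet receptor for VWF picked with its values in view (log2 fold change 2.15, limma adjusted p 0.0753). SELP, which shares the storage bodies of VWF and was chosen after its values were seen, was at 3.05 and 3.63 FPKM with DMSO and at 12.8 and 15.9 FPKM with SB431542 (log2 fold change 1.82, limma adjusted p 0.0803), while VWF overlapped between the groups.

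Of 12 coagulation factors listed, 5 met the filter. FGB, FGA and F10 met it through DMSO alone and F13A1 through SB431542 alone, so that their direction was fixed and no count is read from them. F12, the 1 factor that met it in both groups, was lower at an unadjusted p under 0.05, as 5.16% of all genes were. The most abundant factor, FGB, a chain of fibrinogen, was at 5.50 and 6.60 FPKM with DMSO and at 1.25 and 0.691 FPKM with SB431542 (log2 fold change -1.85, limma adjusted p 0.0980). F12, which starts the contact pathway, was at 4.09 and 3.23 FPKM with DMSO and at 2.27 and 0.976 FPKM with SB431542 (log2 fold change -0.87, limma adjusted p 0.467). F10, the substrate of the tissue factor complex that TFPI also inhibits, was chosen after its values were seen and was at 1.66 and 2.03 FPKM with DMSO and at 0.208 and 0.125 FPKM with SB431542.

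Of the 7 natural anticoagulants listed, 2 met the filter. TFPI2, a relative of TFPI that inhibits plasmin and other proteases, was at 16.3 and 16.6 FPKM with DMSO and at 4.99 and 4.43 FPKM with SB431542, a mean 3.49-fold lower (log2 fold change -1.61, SE 0.16, limma adjusted p 0.0753). It stood further apart between the groups than TFPI, whose mean was 1.32-fold lower. PROS1, the protein S cofactor of protein C, was at 22.6 and 31.5 FPKM with DMSO and at 22.1 and 27.9 FPKM with SB431542 (log2 fold change -0.10, limma adjusted p 0.961).

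All 4 protease-activated receptors met the filter. At an unadjusted p under 0.05 with limma, 2 were lower (5.16% of all genes tested were) and 0 higher (4.80% were). The main thrombin receptor F2R was at 181 and 215 FPKM with DMSO and at 173 and 192 FPKM with SB431542, with overlap (log2 fold change -0.12, limma adjusted p 0.923). F2RL2, a cofactor for thrombin receptors, was at 140.4 and 173 FPKM with DMSO and at 102 and 116 FPKM with SB431542 (log2 fold change -0.52, limma adjusted p 0.477). F2RL1, which the tissue factor complex can activate, was chosen after its values were seen and was at 14 and 16.2 FPKM with DMSO and at 2.91 and 3.66 FPKM with SB431542 (log2 fold change -1.91, limma adjusted p 0.0753). F2RL3, a thrombin receptor of platelets also picked with its values in view, lay the other way without overlap, at 4.88 and 2.72 FPKM with DMSO and at 10.2 and 5.63 FPKM with SB431542 (log2 fold change 0.88, limma adjusted p 0.534).

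On the fibrinolytic side, 2 of 6 genes for plasminogen and its inhibitors met the filter, and plasminogen (PLG) itself was at 0.0851 FPKM or less in every library. SERPINE2, which inhibits thrombin, urokinase and tissue plasminogen activator, was at 63.2 and 73.1 FPKM with DMSO and at 22.8 and 26.1 FPKM with SB431542, a mean 2.79-fold lower (log2 fold change -1.44, SE 0.18, limma adjusted p 0.0969). Against PLAU it stood at 2.15 and 2.13 times with DMSO and at 1.05 and 0.991 times with SB431542. SERPINI1, which inhibits tissue plasminogen activator, was at 5.66 and 6.86 FPKM with DMSO and at 4.15 and 6.28 FPKM with SB431542 (log2 fold change -0.24, limma adjusted p 0.860). The annexin pair that assembles plasminogen and tissue plasminogen activator at the cell surface was abundant, ANXA2 at 323 and 331 FPKM with DMSO and at 287 and 293 FPKM with SB431542 (log2 fold change -0.17, limma adjusted p 0.820). S100A10 was at 92.7 and 102 FPKM with DMSO and at 83.1 and 85.4 FPKM with SB431542 (log2 fold change -0.21, limma adjusted p 0.782).

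Of 6 genes listed under endothelial restraint of platelets, 5 met the filter. At an unadjusted p under 0.05 with limma, 1 was higher (4.80% of all genes tested were) and 0 lower (5.16% were). It was PTGS1, a cyclooxygenase of prostanoid synthesis picked with its values in view, and which cells made it was not tested. PTGIS, also of prostanoid synthesis and picked in the same way, did not meet the filter. It was at 0.656 and 0.641 FPKM with DMSO and at 0.428 and 0.145 FPKM with SB431542. NT5E, which makes adenosine, was at 16.1 and 22.4 FPKM with DMSO and at 26.0 and 33.8 FPKM with SB431542 (log2 fold change 0.62, limma adjusted p 0.510). NOS3, the endothelial nitric oxide synthase, was at 79.8 and 34.1 FPKM with DMSO and at 102 and 43.6 FPKM with SB431542 (log2 fold change 0.35, limma adjusted p 0.933). Its groups overlapped, and replicate 1 was above replicate 2 in each of them.

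**Figure D4:**
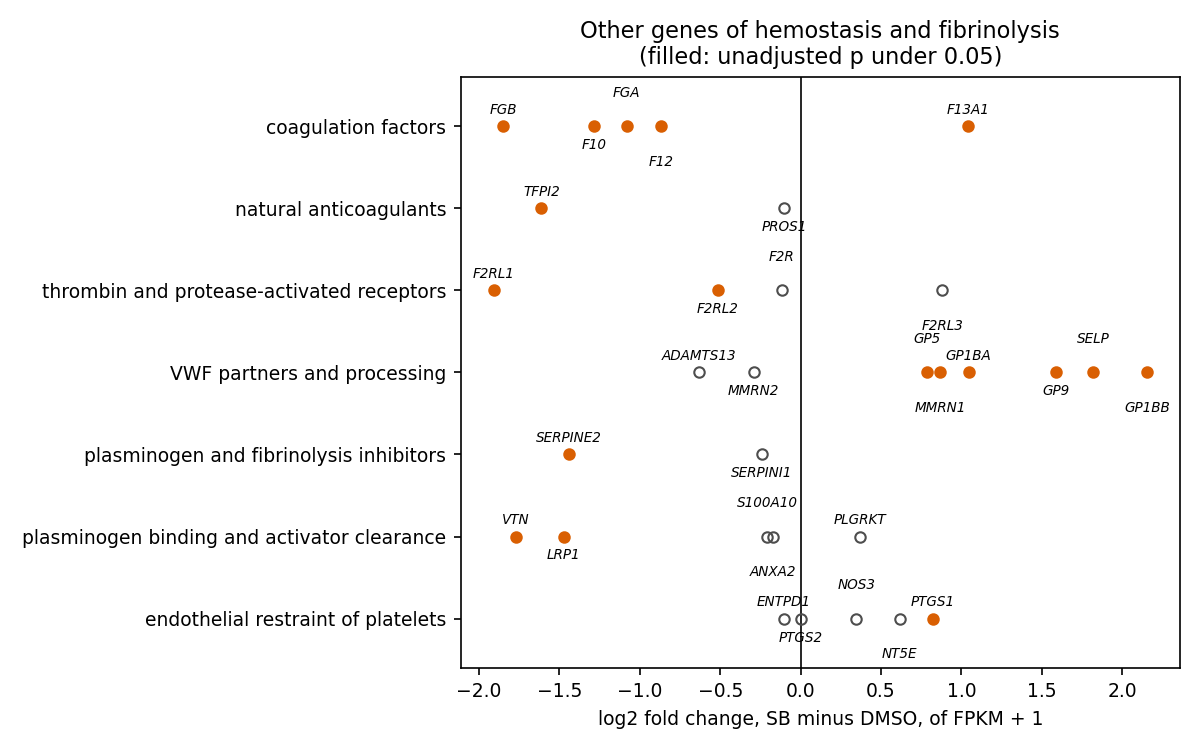
Log2 fold change of FPKM + 1, SB minus DMSO, of the 31 other hemostasis and fibrinolysis genes that met the filter, in rows by role, with filled orange points for an unadjusted p under 0.05. Of 8 VWF partners 6 lie to the right, up to 2.15 for GP1BB, and the direction of FGB, FGA, F10, VTN, F13A1 and GP5 was fixed by the filter, which each met in 1 group alone.

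Marker lists of the cell types that make these transcripts were summed in each library. The 12 endothelial markers summed to 2586 and 2145 FPKM with DMSO and to 2503 and 2123 FPKM with SB431542, ranges that overlap, with PECAM1 at 197 and 163.2 against 182 and 153 FPKM and CDH5 at 273 and 246 against 224 and 202 FPKM. Within the list, ENG, a TGFβ co-receptor, was 3.45-fold lower and ROBO4 2.36-fold lower, and CLDN5 was 2.04-fold higher. Each was at an unadjusted p under 0.05 with limma, as 9.96% of all genes were in either direction. Of the 12, 7 overlapped between the groups and 5 lay apart, where 37.5% of all genes lay apart. Other lists moved beside the genes described. The 11 megakaryocyte and platelet markers, cells that also make VWF and the VWF-binding glycoproteins, summed to 354 and 337 FPKM with DMSO and to 781 and 860 FPKM with SB431542, with all 10 tested genes higher without overlap (21.5% of all genes were), 2 of which met the filter through SB431542 alone. The 10 monocyte and macrophage markers, cells that also make F13A1 and PLAUR, went from 158 and 150.1 FPKM to 384 and 378 FPKM, although CD14 stood at 0.169 FPKM or less in every library. Hepatic endoderm markers, of cells that make fibrinogen, F10 and F12, went from 285 and 324 FPKM to 28.6 and 32.2 FPKM, with ALB at 0.481 FPKM or less. Of its 8 tested genes 4 met the filter through DMSO alone and had to be lower, and the other 4 (AFP, TTR, APOA1 and APOA2) were lower without overlap (16.0% of all genes were) and passed the adjustment with limma. Mesenchymal and smooth muscle markers, of cells that make PLAT, PLAU, F3 and SERPINE2 in many tissues, went from 420.3 and 388 FPKM to 207 and 212 FPKM. All 9 tested genes of this list were lower without overlap (16.0% of all genes were). The size was uneven, from 5.83-fold for COL1A1 to 1.15-fold for PDGFRB, with ACTA2 1.42-fold and COL1A2 1.28-fold lower. The 10 erythroid markers went from 971 and 1039 FPKM to 635 and 751 FPKM. Of these sums HBE1 made up 614 and 676 FPKM with DMSO and 460 and 524 FPKM with SB431542. Of the 8 tested genes 6 were lower without overlap (16.0% of all genes were), and HBG1 and GYPB overlapped. The selection in the methods of the study is for CD31-positive cells, and how many hepatic or mesenchymal cells passed it is not given in the sources used here. The part of these cells in the values of the 9 genes was not tested.

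**Figure D5:**
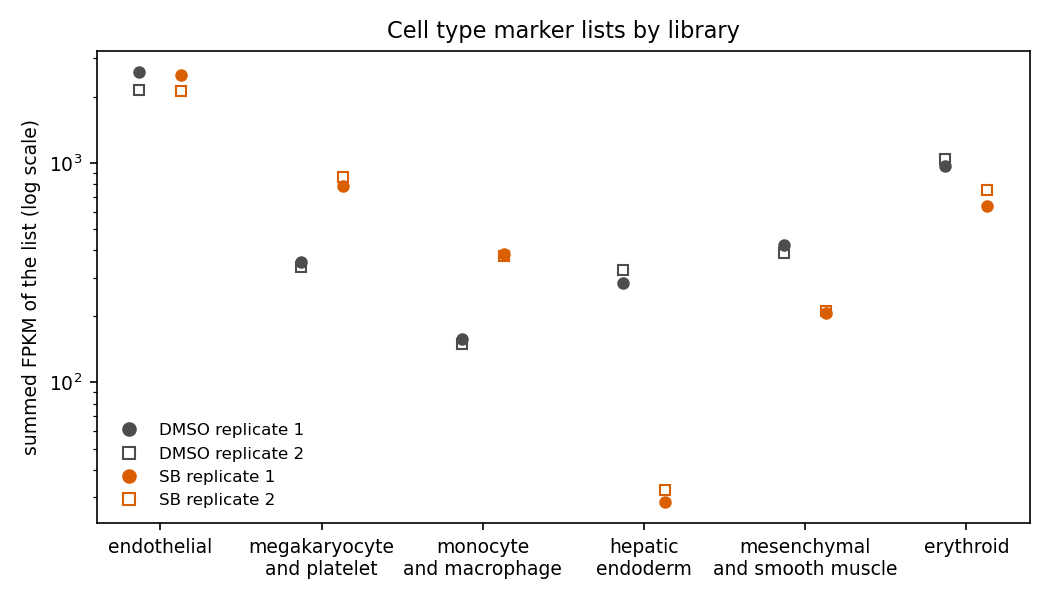
Summed FPKM of each cell type marker list in each library, on a log axis, with DMSO libraries in grey and SB libraries in orange (filled circles, replicate 1; open squares, replicate 2). Endothelial sums overlap between the groups at 2123 to 2586 FPKM, while hepatic endoderm sums are 285 and 324 FPKM with DMSO against 28.6 and 32.2 FPKM with SB431542.

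Each gene was set against PECAM1 within its library. With values scaled to PECAM1, 34.5% of all genes tested lay apart between the groups. F3 did not meet the filter on that scale, and its ratio is given as a description only. F3 was 3.65-fold and PLAT 2.60-fold lower per PECAM1 on the means, and both lay apart between the groups. PROCR was 1.44-fold and TFPI 1.23-fold lower, also apart. F8 was 1.73-fold and PLAUR 1.23-fold higher and both lay apart, while PLAU (1.23-fold lower) and THBD (1.08-fold lower) overlapped. VWF was 1.05-fold lower per PECAM1 and lay apart, a difference smaller than any of the other 8.

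To place 3 of the genes among others, the tested genes with the most similar pattern over the 4 libraries were sought, by the Euclidean distance between log2(FPKM + 1) values centred on their mean. For VWF these were PDE4A (0.0140), AC073957.3 (0.0194) and AC074117.1 (0.0204), which had replicate 1 above replicate 2 in both groups. For F8, the gene of the 9 with the highest log2 fold change, they were AL121761.1 (0.0435), CDKN3 (0.0510) and C2orf76 (0.0601). For PLAT, the gene with the lowest, they were ITGA3 (0.0459), CPXM2 (0.0735) and SEZ6L (0.0798).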

How the data were processed

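RNA-seq of 4 libraries of H1-derived cells (2 DMSO, 2 SB) was read from 1 table. The authors deposited FPKM values, 1 column per library. The submitters' processing notes name BWA, Bowtie and RSEM without versions or roles, and the build hg19, while the loci in the table match GRCh38: GENCODE release 29 held 95.5% of its identifiers in the same version, 99.97% of these at the same position. Strand use, annotation release and scaling between libraries are not given in the sources used here. F8 carries an older identifier version than that release, at the same position. FPKM fixes each library's scale (sums of 570844 to 612614), and depth was estimated from single-exon genes of at least 3000 nt (75.9% to 100% of the deepest library). Genes at 1 FPKM or more numbered 14183 to 14372 per library, and mitochondrial genes held 5.88% to 10.2% of summed FPKM.

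On the scale log2(FPKM + 1), genes with a mean of at least 1 FPKM in at least 1 group were tested with limma 3.58.1 in R 4.3.3 (empirical Bayes with a trend, group as the only term, two-sided, Benjamini-Hochberg over all genes, threshold 0.05), and 95% intervals came from this fit. The procedure was tested on simulated data. Named genes were the 9 members, any listed gene past the adjustment and the 2 most abundant tested genes of each role. All other listed genes (PLG, F10, FGA, F13A1, F2RL1, F2RL3, SELP, GP1BB, GP5, ADAMTS13, VTN, PTGS1, PTGIS and single markers) were chosen after their values were seen. For similarity, the 3 nearest genes were named for VWF and for the members with the highest and the lowest fold change. The members and lists were chosen with earlier results of these data known. Alternatives were a replicate block, no filter, a filter of 5 FPKM or more in 2 or more libraries, quantile and upper-quartile scaling, a pseudocount of 0.1, no trend, removal of each library, and scaling to PECAM1, the last added after seeing the data. Promoter sequences and starts are RefSeq's, and 0 value columns were left out. One further gene of the list is not reported here.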

Additional observations from a re-analysis of the deposited data

How the results depend on the processing

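Of the 9 genes, 0 passed the adjustment with limma under 11 of the 12 alternatives, and the exception was the replicate block, with 4 (TFPI, PROCR, PLAT and PLAU, adjusted p 0.0341, 0.0301, 0.0370 and 0.0445). Under the block 20 of the 31 other hemostasis and fibrinolysis genes passed (9 higher and 11 lower). Of all 14909 genes tested 1564 passed with the block, against 20 without it. Those named in the text included FGB, TFPI2, F2RL2, MMRN1, MMRN2, SERPINE2, NT5E and NOS3 (NOS3 adjusted p 0.0426). The block holds the replicate number as a term. The labels do not say that a replicate number marks a shared culture, and deviations of same-numbered libraries from their group means correlated at 0.53 over 14909 genes, a value that is the same for both numbers by construction with 2 libraries a group. Over all genes 31 passed with quantile normalization, 13 when scaled to PECAM1, 0 without the filter (2739 at an unadjusted p under 0.05) and 0 to 14 without 1 library (0 without DMSO replicate 1, with 1168 at an unadjusted p under 0.05). Members at an unadjusted p under 0.05 numbered 2 with quantile normalization (9.52% of all genes), 1 of 8 tested when scaled to PECAM1 (7.58%), 1 of 6 tested with at least 5 FPKM in at least 2 libraries (9.04%) and 1 to 3 without 1 library (6.11% to 9.40%). Members whose groups did not overlap numbered 3 of 6 with at least 5 FPKM in at least 2 libraries (35.7% of all genes) and 6 to 8 without 1 library (63.0% to 75.7%). Of 270 values of named genes under the alternatives, 9 changed direction, none of them in TFPI, PROCR, PLAT, PLAU, VWF or F8. The replicate block, the changed filters and the fit without a trend left each log2 fold change as it was and could not reverse it. The direction of F3 and FGB was fixed by the filter, which they met through DMSO alone. Without 1 library, THBD ranged from -0.42 to 0.011, PLAUR from -0.0069 to 0.36, PROS1 from -0.33 to 0.13, F2R from -0.24 to 0.0058, SERPINI1 from -0.49 to 0.0092 and NOS3 from -0.26 to 0.95, and PROS1 was 0.0024 when scaled to PECAM1. The causes were not tested. At an estimated 18200000 to 24000000 fragments a library, 1 fragment on 2 kb was worth 0.0209 to 0.0275 FPKM, which limits F3.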
